A study of Nicotiana tabacum with 9 samples.

Results

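Starch is built in the chloroplast from ADP-glucose and is taken apart again, mostly at night, to sugars that leave the organelle. Glucose-1-phosphate adenylyltransferase, also called ADP-glucose pyrophosphorylase, makes the ADP-glucose, and starch synthases add its glucose to growing glucan chains. Glucan phosphorylase works on chain ends in either direction, while the glucanotransferase DPE2, known from Arabidopsis, handles maltose in the cytosol after it has left the chloroplast. The genes described here are the starch building and breakdown enzymes of a deposited expression table of tobacco leaves. They were chosen by the product name of their best Swiss-Prot match (starch, glucose-1-phosphate adenylyltransferase, amylase, glucan branching, glucanotransferase, glucan phosphorylase or alpha-glucosidase), and 5 of the 123 genes of the table matched.

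The plants were seedlings of the cigar tobacco cultivar H382 (Nicotiana tabacum, an allotetraploid), and RNA came from their leaves. The 3 groups differed in the light they received, 50, 100 or 200 µmol per square metre per second (light 50, light 100 and light 200), with 3 libraries each, described by the submitters as biological replicates. The labels do not say whether a library held 1 plant or several. Library totals were between 12395758 and 16603534 reads, and the 5 genes had between 229 and 14076 reads in a library. No gene of the table is at hand that the authors did not select. They marked 122 of the 123 as changed between light 50 and light 200 in the authors' deposited table, so a change of any gene here between these groups is no independent evidence of an effect of light. Comparisons of either group with light 100, and of the steps with each other, use the same libraries. They are therefore not free of that selection either.

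The 5 genes lie on 5 different chromosomes, in the coordinates of the table, for which the labels and headers name no genome build. On the synthesis side, glucose-1-phosphate adenylyltransferase large subunit 1 (AGPase large subunit 1, Nitab4.5_0000308g0330) is on the minus strand of Nt19 at 76942735 to 76946994. Granule-bound starch synthase 2 (Nitab4.5_0002980g0050), a chain-elongating enzyme, is on the plus strand of Nt03 at 90247218 to 90253959. Both names come from potato proteins, the first of them a fragment. The chloroplast form of glucan phosphorylase, the L-1 isozyme of potato (Nitab4.5_0000154g0300), is on the plus strand of Nt14 at 87040991 to 87050128. On the breakdown side, DPE2 (Nitab4.5_0001388g0020), named from Arabidopsis, is on the minus strand of Nt22 at 149365014 to 149395705. Alpha-glucosidase 2 (Nitab4.5_0000030g0360) is on the plus strand of Nt23 at 69926152 to 69957891. Its best match is a protein of a Bacillus species, so its name gives an activity, the release of glucose from glucan ends, and not a shown part in leaf starch. Only 3 of the 5, the phosphorylase, DPE2 and the glucosidase, carry the Gene Ontology term carbohydrate metabolic process in the table.

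All 5 starch genes were higher at light 200 than at light 50, by 1.74-fold to 10.7-fold, and none was lower. The gene of ADP-glucose synthesis changed most and the 2 genes of maltose and glucan-end breakdown changed least. Levels are given as CPM, reads relative to a library size scaled by the authors' size factors and set to their geometric mean total (counts per 1e6), and tests are edgeR's quasi-likelihood test on the counts of all 9 libraries with Benjamini-Hochberg adjustment over the 123 genes at 0.05. In whole leaves, more cells of a type and more RNA per cell cannot be told apart.

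AGPase large subunit 1 had 58.0, 46.4 and 41.1 CPM in the 3 libraries of light 50, 243.7, 283.4 and 188.8 CPM at light 100, and 607.6, 521.3 and 429.8 CPM at light 200. The 3 groups did not overlap, and the lowest library of light 200 was above the highest of light 100. From light 50 to light 200 it rose by a log2 change of 3.42 ± 0.21 (SE, n = 3 per group; adjusted p = 1.06e-07, edgeR), which was the 4th largest log2 change of the table. The large subunit is often described as the regulatory part of the enzyme in potato and other plants. No gene of the table has a product name of the small subunit.

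Granule-bound starch synthase 2 had 62.5, 46.3 and 45.7 CPM at light 50, 124.4, 197.4 and 147.7 CPM at light 100, and 293.6, 277.5 and 179.3 CPM at light 200. Light 50 stood apart from both other groups, whereas replicate 3 of light 200 was below replicate 2 of light 100. It rose 4.86-fold from light 50 to light 200 (log2 change 2.28 ± 0.24, SE; adjusted p = 2.69e-06, edgeR). Its spread between libraries was the widest of the 5 genes at light 100 and at light 200, with a coefficient of variation of 23.8% and 24.7%.

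Glucan phosphorylase L-1 had the most reads of the 5 genes. It had 306.1, 248.7 and 209.5 CPM at light 50, 598.0, 609.6 and 527.9 CPM at light 100, and 838.3, 724.8 and 803.4 CPM at light 200. The groups did not overlap, and it rose 3.1-fold from light 50 to light 200 (log2 change 1.63 ± 0.16, SE; adjusted p = 1.37e-06, edgeR).

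DPE2 had 20.2, 18.5 and 20.6 CPM at light 50, 34.8, 27.5 and 25.2 CPM at light 100, and 44.0, 36.8 and 33.5 CPM at light 200. Light 50 was below every other library, and replicate 1 of light 100 was above replicate 3 of light 200. It rose 1.93-fold from light 50 to light 200 (log2 change 0.95 ± 0.17, SE; adjusted p = 0.000207, edgeR).

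Alpha-glucosidase 2 had 33.0, 27.6 and 25.1 CPM at light 50, 43.9, 43.2 and 38.8 CPM at light 100, and 46.6, 47.5 and 54.5 CPM at light 200. Its groups did not overlap, although light 200 and light 100 were close. It rose 1.74-fold from light 50 to light 200 (log2 change 0.80 ± 0.15, SE; adjusted p = 0.000294, edgeR), the smallest change of the 5.

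**Figure D1:**
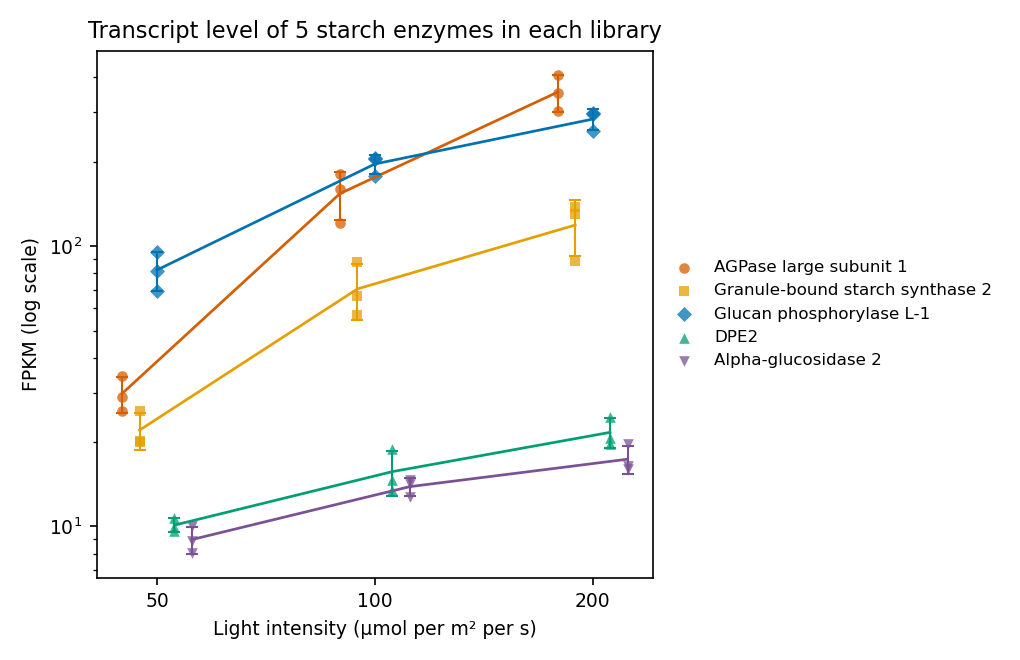
FPKM of the 5 starch enzymes (log axis) at the 3 light intensities. Points are libraries, lines join group means and bars are the SD over 3 libraries. AGPase large subunit 1 goes from a mean of 29.8 FPKM, below glucan phosphorylase L-1 at 82.2, to 354.9, above it at 284.1.

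Read against the table, 47.2% of its genes were called higher at light 200 than at light 50 and 52% lower, so nearly every gene was called in some direction, and the starch genes, all 5 higher, are described here by their direction and size. Their median log2 change was 1.63, and that of all 123 genes was -0.58. Ranked by log2 change in the table, where 58 genes were called higher, the AGPase subunit was 4th and the synthase 12th. The phosphorylase was 17th, DPE2 38th and alpha-glucosidase 2 46th. In all 5 genes every library of light 200 was above every library of light 50, as it was for 47.2% of the table. The count of 5 held under every other setting tried, with other scalings, another tool, a replicate block or a library left out. With the counts centred on the table's median, where 59 of all genes were called higher and 31 lower in place of 58 and 64, the log2 changes of the 5 ran from 1.38 to 4.0. A test of any difference among the 3 light intensities called all 5, as it did 99.2% of the table.

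**Figure D2:**
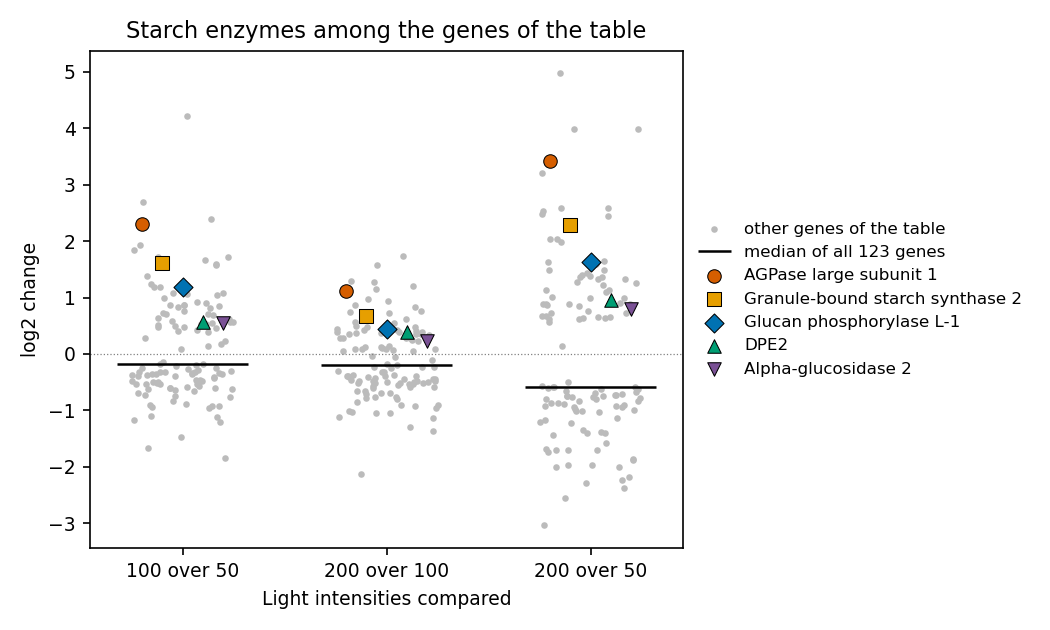
Log2 change of each of the 123 genes in 3 comparisons, with the 5 starch enzymes marked and the median of all genes as a line. The starch enzymes have medians of 1.18, 0.45 and 1.63 from left to right. The medians of the table are -0.18, -0.20 and -0.58, so any gene that rose lies above them.

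The first doubling of light, from 50 to 100, was compared next. All 5 starch genes rose, where 82.9% of the table was called, 42.3% higher and 40.7% lower. With TMM factors 58 genes of the table were called higher and 13 lower in place of 52 and 50, and with median centring 56 and 19. The median log2 change of the 5 was 1.18, against -0.18 over all genes. AGPase large subunit 1 rose 4.92-fold (log2 change 2.30 ± 0.20, SE; adjusted p = 4.27e-06, edgeR) and granule-bound starch synthase 2 rose 3.04-fold (adjusted p = 0.000139, edgeR). Glucan phosphorylase L-1 rose 2.27-fold (adjusted p = 6.47e-05, edgeR). DPE2 and alpha-glucosidase 2 rose by similar amounts, log2 changes of 0.56 ± 0.17 and 0.56 ± 0.15 (SE; adjusted p = 0.012 and 0.00753, edgeR). In all 5 genes the libraries of light 100 were all above those of light 50, as they were in 39.8% of the table. Without light 100 replicate 1, the library with the most DPE2 in its group, DPE2 was not called (log2 change 0.42, adjusted p = 0.0597, edgeR). The authors' deposited table marks AGPase large subunit 1, granule-bound starch synthase 2 and glucan phosphorylase L-1 as changed. It gives DPE2 an adjusted p of 0.139 and alpha-glucosidase 2 one of 0.0889. Unadjusted, the authors' values for these genes are 0.00381 and 0.0020, against 0.00646 and 0.00317 with edgeR. The edgeR adjustment ran over the 123 selected genes only, so the adjusted p-values are not like for like. Its added calls are no sign of better detection.

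The second doubling, from 100 to 200, gave smaller changes. Of the 5 genes, 3 rose, where 60.2% of the table was called, 21.1% higher and 39% lower, and the median log2 change of the 5 was 0.45 against -0.20 over all genes. The split of the table, 26 higher and 48 lower, was 43 and 36 with TMM, 45 and 17 with RLE, 43 and 17 with median centring and 42 and 42 with library totals. AGPase large subunit 1 rose 2.18-fold (log2 change 1.12 ± 0.20, SE; adjusted p = 0.00105, edgeR). Granule-bound starch synthase 2 rose 1.6-fold (log2 change 0.68 ± 0.23, SE; adjusted p = 0.0254) with overlapping groups, and glucan phosphorylase L-1 rose 1.36-fold (log2 change 0.45 ± 0.15, SE; adjusted p = 0.026). DPE2 had a log2 change of 0.39 ± 0.17 (SE; adjusted p = 0.0641) and alpha-glucosidase 2 one of 0.24 ± 0.15 (SE; adjusted p = 0.169). Neither passed the threshold, although the light 200 libraries of alpha-glucosidase 2 were all above those of light 100, as in 29.3% of the table.

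Apart from AGPase large subunit 1, these calls depended on single libraries and on the scaling. The starch synthase was not called without light 100 replicate 1, light 100 replicate 3, light 200 replicate 1 or light 200 replicate 2 (adjusted p = 0.0827, 0.0852, 0.0928 and 0.0736, edgeR). The phosphorylase was not called without light 100 replicate 1, light 100 replicate 3 or light 200 replicate 1 (adjusted p = 0.0506, 0.105 and 0.0854, edgeR). Conversely, DPE2 was called without light 100 replicate 1 (adjusted p = 0.0326, edgeR) or light 200 replicate 3 (adjusted p = 0.0462, edgeR). TMM, RLE and median centring, which put the table's median change higher by 0.14, 0.22 and 0.20 on the log2 scale, each called all 5 genes higher. Library totals called 4, DPE2 among them (adjusted p = 0.0283, edgeR). The authors' deposited table marks AGPase large subunit 1 alone in this comparison (adjusted p = 0.000239) and gives the phosphorylase an adjusted p of 0.068. Unadjusted, the authors' value for the phosphorylase is 0.000979, against 0.0125 with edgeR, so here too the adjusted p-values are not like for like.

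**Figure D3:**
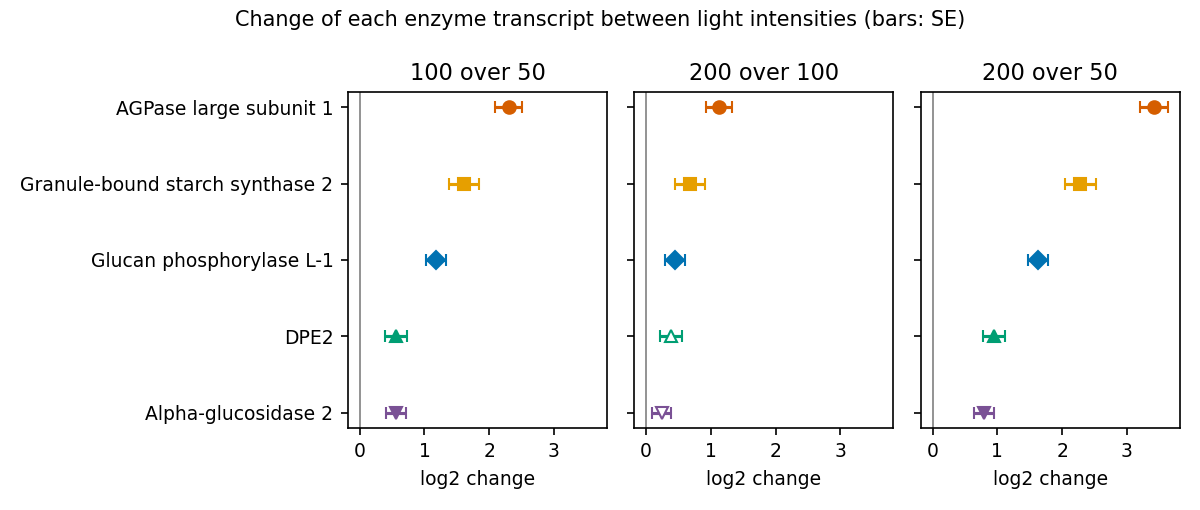
Log2 change of each starch enzyme between light intensities, with bars of 1 SE (edgeR). Filled symbols have an adjusted p under 0.05, and open symbols do not. From 200 over 100, DPE2 (0.39) and alpha-glucosidase 2 (0.24) are open.

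Both doublings share the light 100 libraries, so their changes were compared by a test of the difference itself, the log2 change of the second doubling minus that of the first. Over the whole table the median of this difference was -0.17, so it was negative in most genes. The difference was also negative in all 5 starch genes, and this sign alone does not set them apart. AGPase large subunit 1 had the most negative value, -1.18 ± 0.33 (SE), followed by the starch synthase at -0.93 ± 0.39, the phosphorylase at -0.74 ± 0.26, alpha-glucosidase 2 at -0.32 ± 0.26 and DPE2 at -0.18 ± 0.29. None was called by edgeR (adjusted p from 0.0763 to 0.791), and 2.44% of the table was called. An unadjusted p under 0.05 (edgeR) was found for 3 of the 5, and for 19 of the table's 123 genes with these 3 included. DESeq2 called AGPase large subunit 1 (adjusted p = 0.0185), and TMM factors gave calls for the synthase and the phosphorylase too. Over the table, DESeq2 called 9 genes and TMM 23, in place of 3. Without light 50 replicate 1, edgeR called the AGPase subunit and the phosphorylase (adjusted p = 0.0327 for each), and without light 100 replicate 3 the AGPase subunit alone of the 5 (adjusted p = 0.0418). Between 1 and 14 genes of the table were called when a library was left out. DPE2 had a difference of 0.12 without light 100 replicate 1.

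How the 5 genes stood to each other was read from FPKM, which is per length of the coding sequence and per library total, without the size factors. At light 50 the order was glucan phosphorylase L-1 at 82.2 ± 13.2 FPKM (SD, n = 3), AGPase large subunit 1 at 29.8 ± 4.35, granule-bound starch synthase 2 at 22.1 ± 3.33, DPE2 at 10.1 ± 0.587 and alpha-glucosidase 2 at 8.98 ± 0.994. The ranges of the AGPase subunit and the synthase overlapped, and so did those of DPE2 and the glucosidase. At light 100 the phosphorylase, at 196.5 ± 15.4 FPKM, and the AGPase subunit, at 154.1 ± 30.3, overlapped. At light 200 the AGPase subunit was first with 354.9 ± 52.7 FPKM, the phosphorylase next with 284.1 ± 23.6 and the synthase after it with 119.0 ± 26.7, and DPE2 and the glucosidase had 21.7 ± 2.64 and 17.4 ± 2.02. No neighbours in that order overlapped at light 200, but some gaps were narrow. The lowest DPE2 library had 19.71 FPKM and the highest of alpha-glucosidase 2 had 19.7. For the AGPase subunit and the phosphorylase these values were 304.0 and 298.7. Within each library the AGPase subunit was below the phosphorylase in all 6 libraries of light 50 and light 100 and above it in all 3 of light 200.

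The 5 genes summed to 153.2 ± 21.2 FPKM at light 50, 450.6 ± 55.5 at light 100 and 797.0 ± 79.1 at light 200 (SD, n = 3). The part of this sum that was AGPase large subunit 1 went from 19.4% ± 0.139 to 34.0% ± 2.7 and 44.4% ± 2.45, and that of the phosphorylase from 53.6% ± 1.65 to 43.8% ± 2.65 and 35.9% ± 4.37. The part of the starch synthase was 14.4% ± 0.766, 15.6% ± 2.75 and 14.8% ± 2.44. DPE2 went from 6.71% ± 1.21 to 2.71% ± 0.067 and alpha-glucosidase 2 from 5.88% ± 0.16 to 2.21% ± 0.449 between light 50 and light 200.

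**Figure D4:**
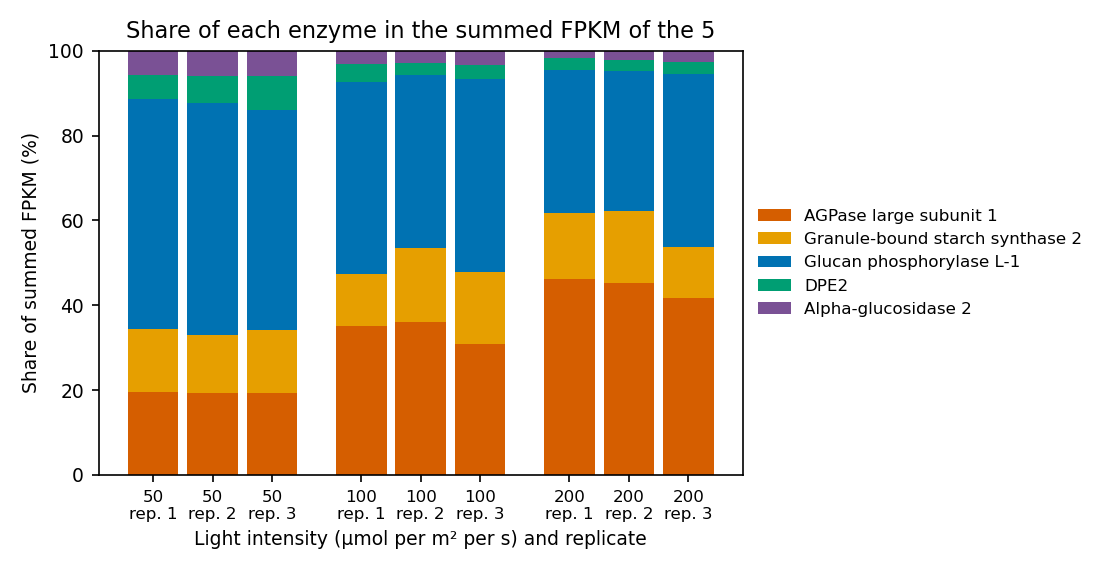
Share of each starch enzyme in the summed FPKM of the 5, for each library, by light intensity and replicate. The lowest segment, AGPase large subunit 1, has means of 19.4%, 34.0% and 44.4% at the 3 intensities.

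The AGPase subunit was set against each other gene by the ratio of their counts within a library, which no scaling of libraries can move. It was taken as the numerator with its change, the largest of the 5, already known, so these ratios are a description with no test. The slope of the log2 ratio per doubling of light was 0.58 ± 0.086 (SE) over the starch synthase, 0.89 ± 0.082 over the phosphorylase, 1.24 ± 0.14 over DPE2 and 1.31 ± 0.13 over alpha-glucosidase 2. Expressed in FPKM, the AGPase subunit over the phosphorylase was 0.363 ± 0.0095 at light 50, 0.78 ± 0.10 at light 100 and 1.25 ± 0.21 at light 200 (SD, n = 3), with 1.02 in replicate 3 of light 200. Over the synthase it was 1.35 ± 0.075, 2.23 ± 0.51 and 3.03 ± 0.38, and over DPE2 it was 2.96 ± 0.53, 9.94 ± 2.15 and 16.4 ± 0.837. Without any 1 library the 4 slopes were between 0.546 and 1.44.

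**Figure D5:**
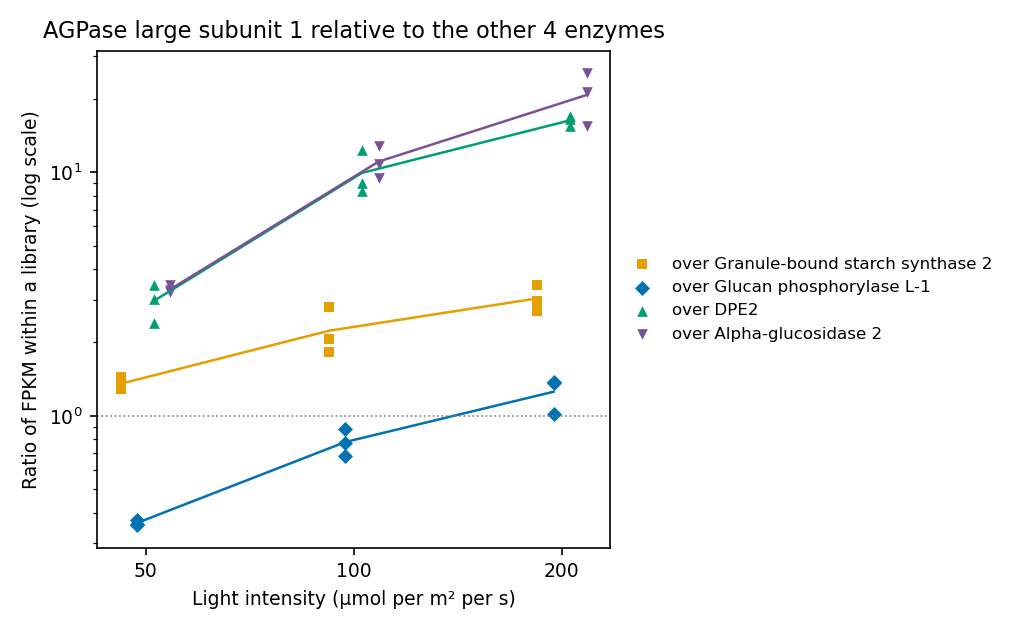
FPKM of AGPase large subunit 1 divided by that of each other starch enzyme in the same library (log axis), by light intensity. Points are libraries and lines join group means. The ratio over glucan phosphorylase L-1 passes the dotted line at 1 between light 100 (mean 0.78) and light 200 (mean 1.25), and all 4 ratios increase.

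The libraries of a group differed in ways that the 5 genes did not all share. Replicate 3 of light 200 had the lowest CPM of its group for the AGPase subunit, the synthase and DPE2 and the highest for alpha-glucosidase 2. At light 100, replicate 2 had the highest CPM for the AGPase subunit, the synthase and the phosphorylase, while replicate 1 had the highest for DPE2 and alpha-glucosidase 2. At light 50, replicate 1 was highest for 4 of the 5, DPE2 being the exception.

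The likeness of other genes was measured by Pearson's r of log2 CPM over the 9 libraries, given as a description. The libraries share the 3 light groups, so high values are common. Over the 57 other genes called higher at light 200 than at light 50, the median r was 0.95 with the AGPase subunit, 0.95 with the synthase, 0.935 with the phosphorylase, 0.886 with DPE2 and 0.90 with alpha-glucosidase 2. Of these 57 genes, 40, 39, 39, 23 and 28, in the same order, had r over 0.9. The nearest to AGPase large subunit 1 were a beta-glucosidase named BoGH3B (Nitab4.5_0001505g0020, r = 0.996), flavone 3'-O-methyltransferase 1 (Nitab4.5_0000725g0060, r = 0.994), which methylates phenolic compounds, and flavonol synthase (Nitab4.5_0005357g0020, r = 0.994). Nearest to the starch synthase were the same methyltransferase (r = 0.992), the chloroplast cotransporter BASS1 (Nitab4.5_0000667g0060, r = 0.99) and 3-hydroxyisobutyryl-CoA hydrolase-like protein 5 (Nitab4.5_0001232g0070, r = 0.988). Nearest to the phosphorylase were ABC transporter C family member 14 (Nitab4.5_0002469g0080, r = 0.991), 1-aminocyclopropane-1-carboxylate oxidase (Nitab4.5_0000091g0420, r = 0.989), which makes ethylene, and the AGPase subunit (r = 0.988). DPE2 was nearest to a phenylalanine ammonia-lyase (Nitab4.5_0000754g0260, r = 0.974), the BoGH3B gene (r = 0.96) and the phosphoglucan phosphatase LSF1 (Nitab4.5_0004348g0040, r = 0.944). Alpha-glucosidase 2 was nearest to the phosphorylase (r = 0.979), Nudix hydrolase 19 (Nitab4.5_0000106g0230, r = 0.956) and ABC transporter C family member 14 (r = 0.951). Among the 5 themselves, r ran from 0.864 between DPE2 and alpha-glucosidase 2 to 0.988 between the AGPase subunit and the phosphorylase.

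A list of related carbon metabolism (sucrose synthesis and cleavage, sugar phosphate and Calvin cycle enzymes, glycolysis, glucan phosphatases and sugar transport) had 4 genes in the table. Of these, 3 rose and 1 fell between light 50 and light 200, where 47.2% of the table was called higher and 52% lower. In the first doubling 3 rose and 1 fell (42.3% and 40.7% of the table), and in the second 2 rose and 1 fell (21.1% and 39%). LSF1, a protein needed for normal leaf starch breakdown in Arabidopsis, had 35.4 ± 2.12, 49.0 ± 3.86 and 59.8 ± 4.73 CPM (SD, n = 3) at the 3 intensities, a log2 change from light 50 to light 200 of 0.76 ± 0.14 (SE; adjusted p = 0.000211, edgeR). It thus changed by about as much as alpha-glucosidase 2. The chloroplast glyceraldehyde-3-phosphate dehydrogenase GAPCP2 (Nitab4.5_0003777g0020), an enzyme of plastid glycolysis, went from 10.5 ± 0.798 to 20.9 ± 0.634 CPM (adjusted p = 0.000116, edgeR). Chloroplast pyruvate kinase isozyme A (Nitab4.5_0000772g0060) went from 19.5 ± 6.01 to 49.8 ± 9.08 CPM. Rubisco activase 1 (Nitab4.5_0004475g0020), which keeps the carbon-fixing enzyme active, went the other way, from 57.0 ± 1.02 to 35.2 ± 1.04 CPM (adjusted p = 0.000387, edgeR).

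Leaf mesophyll markers were listed too (Rubisco activase, antenna proteins, photosystem I and oxygen-evolving subunits). This list is no independent check of the leaf label, since its genes come from a table that the authors selected. All 18 of its genes in the table had reads in every library, and Rubisco activase 1 is on both this list and the one above. Their summed level was 43280 to 52620 CPM at light 50, 34760 to 39600 at light 100 and 22290 to 28440 at light 200, so it moved against the starch genes. Lists for dividing cells, root nicotine synthesis and trichomes held 1 gene each, matched by words in the product name. These names do not show that a gene is particular to those cells or that pathway. The tubulin beta-1 chain had 79.1 to 126.7 CPM at light 50 and 28.6 to 38.2 at light 200, a lipid-transfer protein 40.8 to 65.9 and 13.5 to 17.7, and berberine bridge enzyme-like 8 had 0.606 to 1.32 and 3.98 to 7.5. None of the 3 was at 0 in a library. Their part in the starch results was not tested.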

How the data were processed

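The starch genes and all lists and tests were chosen with earlier results of these data known. The deposited table holds whole read counts of each library. CASAVA 1.7, HISAT and HTSeq appear in the submitters' processing notes, with no role given. The authors' FPKM values, group means of size-factor-scaled counts, log2 fold changes and p-values were used as deposited, per the file headers. Neither labels nor headers name the authors' test. Lengths in the table are multiples of 3 in all 123 genes, so FPKM is per coding length.

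The library kit named in the labels' protocols, NEBNext Ultra RNA, does not mark strand. Reads of overlapping or antisense genes, and of near-identical copies in this allotetraploid, cannot be told apart, and values of single AGPase, synthase or phosphorylase copies are uncertain for that reason. The reference gene table matched 0 identifiers of the table.

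Library totals were recovered from counts, FPKM and length, and size factors from the authors' group means (largest relative error 5.0e-10). The separate comparisons gave 1 set of 9 factors within 0.19%. The quasi-likelihood test of edgeR 4.0.16 (R 4.3.3) was run two-sided with 1 mean per light group. Its filterByExpr removed none of the 123 genes, so all 5 starch genes passed. The authors' factors were the main scaling because TMM takes most genes as unchanged. SE is the log2 change divided by the square root of the F statistic. The depth limits DPE2 and alpha-glucosidase 2 most, with 229 to 954 reads a library. Genes were named by a rule: every starch gene, the 3 nearest by r to each and up to 4 of each list. The genes named for their Gene Ontology term under Other observations are outside this rule. Alternatives were TMM, RLE, library totals, median centring, DESeq2 1.42.0 with the same size factors, no filter, only the groups compared, a replicate block and leaving out each library. The edgeR step was run on simulated counts in which all genes had the same spread beyond sampling noise and many were unchanged. That checks the code, and does not show how the test does on a table selected for change. Replicates differed beyond sampling noise in every pair (chi-square over its degrees of freedom, 23.6 to 102.4). The labels call them biological replicates but do not say what was replicated. The p-values therefore weigh differences between groups against the spread between these libraries only.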

Additional observations from a re-analysis of the deposited data

How the results depend on the processing

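All 5 genes were called higher from light 50 to light 200 under every setting tried. From light 50 to light 100 all 5 were called under each, except that 4 were called without light 100 replicate 1. From light 100 to light 200, 3 were called, and 5 with TMM, RLE or median centring, 4 with library totals, and 1 to 4 when a library was left out, the low value without light 100 replicate 3 or light 200 replicate 1. The table's 74 calls there became 40 to 80 without a library. The step difference was called for 0 of the 5 and 3 of the table. With TMM it was called for 3 of the 5 and 23 of the table, with DESeq2 for 1 and 9, with a replicate block for 1 and 6, with library totals for 0 and 5, and without a library for 0 to 2 and 1 to 14. The step difference of DPE2 ran from -0.37 without light 100 replicate 3 to 0.12 without light 100 replicate 1. The cause of these moves was not tested. The counts over the whole table for the step difference and for any difference were run under these alternatives only after the data were seen.

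Against the authors' factors, TMM raised the table's median change by 0.43 from light 50 to 200 and 0.28 from 50 to 100.

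Replicate numbers were not taken as pairs. Over 9 pairs of same-numbered libraries r of the deviations from group means ran from -0.499 to 0.541, 4 pairs were over 0.1, and the best match was the own number in 5 of 18 checks. The replicate block changed no call of the 5 beside that of the AGPase subunit's step difference (adjusted p = 0.0285).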

Other observations

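The table holds 14 genes with the Gene Ontology term carbohydrate metabolic process, 3 of them starch genes described above, and the other 11 were looked at only after the results were seen. Between light 50 and light 200, 8 of these 11 rose and 3 fell, where 47.2% of the table was called higher and 52% lower. Their median log2 change was 1.0, against -0.58 over the table. The genes that rose include anthocyanidin 3-O-glucosyltransferase (log2 change 3.98 ± 0.26, SE), UDP-glycosyltransferase 74E2 and a putative rhamnosyltransferase. Pyruvate kinase isozyme A, counted above in related carbon metabolism, is among them too. A probable protein kinase, SIS8, and a gene without a product name are among those that fell. The beta-glucosidases named BoGH3B and SFR2 rose, Nitab4.5_0001505g0020 from 48.2 ± 2.37 to 126.3 ± 11.7 CPM, Nitab4.5_0000010g0130 from 54.9 ± 8.0 to 91.2 ± 5.2 CPM and SFR2 (Nitab4.5_0003135g0010) from 120.2 ± 11.9 to 240.1 ± 12.6 CPM (SD, n = 3). SFR2, a galactolipid-remodelling enzyme of the chloroplast envelope in Arabidopsis, had 225.6 ± 4.21 CPM at light 100, and its second doubling had a log2 change of 0.09 ± 0.14 (SE). Beta-xylosidase/alpha-L-arabinofuranosidase 2 (Nitab4.5_0003089g0010), which acts on cell wall polysaccharides, fell from 318.3 ± 61.6 to 97.6 ± 19.0 CPM.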
